A study of Mus musculus with 16 samples.

Results

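The LIM domain proteins of heart muscle are described here through 10 mouse genes, Fhl1, Fhl2, Fhl3, Csrp3, Pdlim1, Pdlim3, Pdlim5, Ldb3, Lmcd1 and Crip2. They were chosen by name from the FHL, CSRP, PDLIM and related families. Each has 1 row, so they are 10 of the 16118 genes in the deposited table. Polyadenylated RNA was sequenced from the atria and the ventricles of 8 adult male littermates, 16 libraries in all, to ask what loss of the homeodomain transcription factors Meis1 and Meis2 does in the adult heart. The idKO mice carried alpha-MHC-MerCreMer tg/wt, a transgene for a tamoxifen-activated Cre recombinase under a cardiomyocyte promoter, on floxed alleles of both genes (Meis1flox/flox and Meis2flox/flox). The control mice were alpha-MHC-MerCreMer wt/wt on those same floxed alleles. All hearts were taken 2 weeks after tamoxifen induction, with the outflow tract removed. Each mouse gave 1 atrial and 1 ventricular library, so there were 4 idKO ventricles, 4 control ventricles, 4 idKO atria and 4 control atria. The labels give no age in days. Because the controls lacked the transgene, effects of Cre activity and of the deletions cannot be told apart. The Cre acts in cardiomyocytes and the libraries are whole chambers, so other cells kept their alleles. In such bulk samples, fewer cells of a type and less RNA per cell cannot be told apart.

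A LIM domain is a zinc-binding fold that works as a docking surface for other proteins. In heart muscle many LIM proteins sit at the Z-disc, where actin filaments of neighbouring sarcomeres meet, or along the elastic part of titin, and several also enter the nucleus as transcription cofactors. They are known as links between mechanical load and gene expression, and inherited defects in several of them cause cardiomyopathy. The FHL proteins consist of LIM domains alone. Csrp3, the muscle LIM protein, belongs to the CSRP family, and Pdlim1, Pdlim3, Pdlim5 and Ldb3 join LIM domains to a PDZ domain that binds alpha-actinin.

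Values are normalised read counts, that is counts scaled by the authors per M (mega) effective reads. The authors' scaling stretched ventricular values relative to atrial ones, since the effective library size was 0.687 of the reads in genes in idKO ventricles, 0.639 in control ventricles, 0.958 in idKO atria and 0.947 in control atria (means). Libraries held 13.1 to 21.8 M reads in genes. Meis2 averaged 8.83 ± 0.85 in idKO ventricles and 26.8 ± 4.2 in control ventricles (SD, n = 4 each), a log2 fold change of -1.49 (adjusted p = 2.0e-05, limma). Meis1 averaged 23.1 in idKO ventricles and 27.3 in control ventricles (adjusted p = 0.249). These gene-level values also count exons outside the floxed parts, and where those parts lie is not given in the sources used here. Reads on Esr1, whose ligand-binding domain is part of MerCreMer, lay between 2292 and 3641 in idKO ventricles, against at most 1.84 in control ventricles. The chamber labels matched their markers. The atrial light chain gene Myl7 averaged 4886 in idKO atria and 5077 in control atria, against 9.33 in idKO ventricles and 11.2 in control ventricles. All 6 cardiomyocyte markers were present in every group.

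The DNA before the start sites of Fhl2 is shown because Fhl2 carried the largest genotype difference of the 10 genes. The next 2 lines give the 250 bases before both of its RefSeq starts on GRCm38.p6, on the minus strand of chromosome 1, chr1:43196762-43197011 for the upstream start and chr1:43163962-43164211 for the downstream start. Capitals mark a CArG box, the binding sequence of serum response factor, in both. In the upstream one they also mark an AGATAA match read on the opposite strand, the second run of capitals, and a MEF2 site, the third.
Fhl2 upstream start: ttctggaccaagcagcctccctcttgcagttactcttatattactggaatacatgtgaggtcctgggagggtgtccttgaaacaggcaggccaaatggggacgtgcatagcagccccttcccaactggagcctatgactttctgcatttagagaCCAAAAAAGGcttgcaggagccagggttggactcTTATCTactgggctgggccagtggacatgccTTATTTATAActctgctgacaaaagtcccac
Fhl2 downstream start: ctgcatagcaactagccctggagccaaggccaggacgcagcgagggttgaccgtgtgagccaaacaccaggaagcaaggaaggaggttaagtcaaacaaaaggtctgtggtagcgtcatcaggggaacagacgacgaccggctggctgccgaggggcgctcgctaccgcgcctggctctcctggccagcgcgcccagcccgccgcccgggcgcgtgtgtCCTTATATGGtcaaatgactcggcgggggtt
Both strands of 16 windows of 300 bases, 250 before and 50 after each start, were searched for all 10 genes. The motifs were TGACAG, a MEIS motif, CATTCC of TEAD factors, AGATAA of GATA factors, TNAAGTG of Nkx2-5, the CArG box and the MEF2 site. The MEIS motif was in 1 window of Fhl1 and 1 of Csrp3, and 19.2% of all 32851 windows of the RefSeq table held it. Neither window of Fhl2 held it, and the windows of Crip2 held none of the 6 motifs. CATTCC was in the window of Pdlim3 (14.7% of all windows), TNAAGTG in 1 of Csrp3 (11.5%) and AGATAA in 1 of Fhl2 (11.2%), and no match overlapped another. A CArG box was in 6 of the 16 windows, which belong to 4 genes, against 1.63% of all windows and 1.81% of 27025 genes. Besides Fhl2 these genes were Fhl1, Ldb3 and Lmcd1. Their boxes are shown in capitals with 25 bases on either side, at chrX:56779556-56779615 (plus strand), chr14:34588682-34588741 (minus strand) and chr6:112273518-112273577 (plus strand).
Fhl1: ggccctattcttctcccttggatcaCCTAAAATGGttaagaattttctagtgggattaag
Ldb3: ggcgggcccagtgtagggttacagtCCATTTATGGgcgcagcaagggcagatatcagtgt
Lmcd1: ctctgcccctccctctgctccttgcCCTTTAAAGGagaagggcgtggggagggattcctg
The Ldb3 box lay in both of its windows, which overlap. A MEF2 site was in 1 window of the 10 genes, that of the upstream Fhl2 start, against 3.19% of all windows. These matches describe the letters in the windows, and the libraries hold no measure of binding.

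Levels per kilobase of the longest coding transcript set the 10 genes in order within a group. In idKO ventricles Csrp3 was at 1429 ± 78, Crip2 at 732 ± 13 and Fhl2 at 507 ± 74 (SD, n = 4), with no overlap between neighbours. In control ventricles Csrp3 stood at 1473 ± 67 and Fhl2 at 1412 ± 113, with overlapping libraries, and Crip2 came next at 898 ± 31, apart from both. Fhl2 thus ranked below Crip2 in idKO ventricles and above it in control ventricles. Ldb3 and Pdlim5 followed in both ventricle groups, with overlapping libraries in idKO ventricles. By that length Fhl1 had rank 6 in all 4 groups, at 110 ± 14 in idKO ventricles and 83.3 ± 11.2 in control ventricles. Pdlim1, Lmcd1, Pdlim3 and Fhl3 were the low genes, and Fhl3 was lowest by that length in all 4 groups, between 1.19 and 6.41 per kilobase. In both atrial groups the order opened with Csrp3, Crip2, Fhl2 and Ldb3, and the libraries of Fhl2 and Ldb3 overlapped. Merged exon length in place of transcript length put Fhl2, Crip2 and Csrp3 in the first 3 places of control ventricles in that order, and Crip2 ahead of Csrp3 in the other groups. It also put Pdlim3 below Fhl3 in control ventricles, Fhl1 ahead of Pdlim5 in control atria, Ldb3 ahead of Pdlim5 in idKO ventricles and Lmcd1 ahead of Pdlim1 in all 4 groups. The median coding transcript of Pdlim5 has 1651.5 bases against 5016 for the longest. For Ldb3 these lengths are 2299 and 5119, for Fhl1 1337 and 2770 and for Fhl2 1421 and 1563. Levels by median length were not computed.

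**Figure D1:**
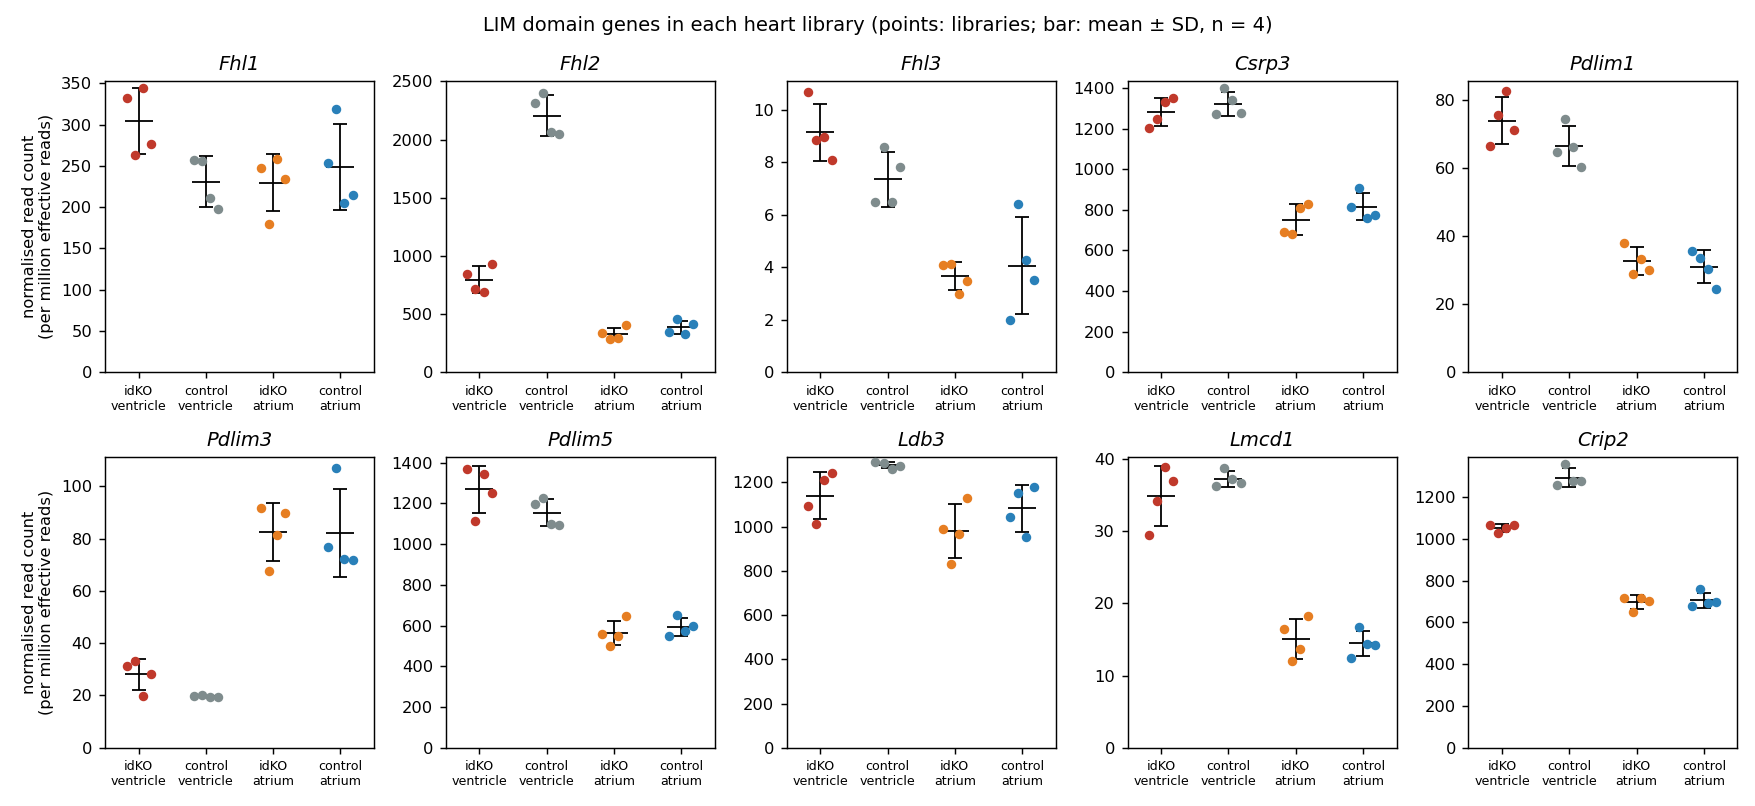
Normalised read count per M effective reads (vertical axes, each from 0) of the 10 LIM genes in every library, by group, with the mean and SD of 4 libraries as black bars. Fhl2 lies between 685 and 932 in idKO ventricles and between 2049 and 2397 in control ventricles, and the 2 atrial groups overlap for all 10 genes.

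The first comparison asked how the 10 genes differ between idKO and control ventricles. Fhl2 and Crip2 fell, none passed the test as higher, and 8 did not pass it. The background in this comparison was 1.46% of 13808 tested genes lower and 0.492% higher. The median log2 fold change was 0.05 over the 10 genes and -0.01 over all genes tested. All 10 genes passed the filter on low values. Tests are limma fits on log2(value + 1), on the 8 libraries of the chamber, with Benjamini-Hochberg adjustment over all genes tested.

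Fhl2, which binds the elastic N2B region of titin and restrains calcineurin signalling in the mouse heart, had 844, 710, 685 and 932 normalised reads in idKO ventricles 1 to 4, and control ventricles 1 to 4 had 2316, 2397, 2064 and 2049. Every idKO ventricle lay far below the lowest control ventricle. The mean was 793 ± 116 in idKO ventricles and 2206 ± 177 in control ventricles (SD, n = 4 each), so idKO ventricles held 35.9% of the control level. The log2 fold change was -1.48 (SE 0.095, 95% interval -1.69 to -1.28, adjusted p = 1.7e-06, limma). At least 8387 reads stood behind the value in each ventricle. The gene spans chr1:43123074-43196984 on the minus strand (GENCODE M21, GRCm38), and a processed pseudogene on the opposite strand, Gm8210, overlaps it, with a mean value of 2.43.

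Crip2, a LIM-only protein of heart and vessels encoded at chr12:113140236-113145506 on the plus strand, had 1065, 1027, 1052 and 1068 normalised reads in idKO ventricles, against 1259, 1357, 1276 and 1278 in control ventricles. The groups did not overlap and the spread within each was narrow. The mean was 1053 ± 19 in idKO ventricles and 1292 ± 44 in control ventricles, 81.5% of the control level. The log2 fold change was -0.30 (SE 0.053, 95% interval -0.41 to -0.18, adjusted p = 0.0103, limma). With a prior without trend the call was lost (adjusted p = 0.098), and over all alternatives its adjusted p ran from 2.2e-07 to 0.098. The log2 fold change ran from -0.295 to -0.192 over the alternative settings and from -0.307 to -0.271 with 1 replicate left out.

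Fhl1, a titin-binding relative of Fhl2, had 332, 264, 345 and 277 normalised reads in idKO ventricles, against 258, 256, 211 and 197 in control ventricles. All 4 idKO ventricles lay above all 4 control ventricles, by a small margin between the closest ones. The log2 fold change was 0.40 (95% interval 0.18 to 0.62), and it did not pass the test (adjusted p = 0.0733, limma). It passed with DESeq2 on the recovered reads (adjusted p = 0.0036) and after rescaling to the sum of values (adjusted p = 0.024), within a range of 0.0036 to 0.23 over all alternatives. Pdlim3, an alpha-actinin-binding protein of the Z-disc, had 31.2, 33.2, 19.9 and 28.3 normalised reads in idKO ventricles, against 19.7, 20.0, 19.6 and 19.3 in control ventricles. The idKO ventricle 3 lay within the control range and the other 3 above it. The log2 fold change was 0.47 (95% interval 0.18 to 0.76, adjusted p = 0.104, limma). It passed the test without idKO replicate 3 (0.62, adjusted p = 0.0062) and with DESeq2 (adjusted p = 0.014), within a range of 0.0062 to 0.27.

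Ldb3, which stabilises the Z-disc, had 1092, 1013, 1209 and 1244 normalised reads in idKO ventricles, against 1291, 1290, 1261 and 1273 in control ventricles. The groups did not overlap, and idKO ventricles spread more widely. The log2 fold change was -0.17 (95% interval -0.32 to -0.025, adjusted p = 0.263, limma). Thus 3 of the 10 genes (Fhl2, Crip2 and Ldb3) had all idKO ventricles below all control ventricles, and 1 (Fhl1) had them above. Of all genes tested, 5.62% lay apart in the lower direction and 3.17% in the higher direction. The other 6 genes overlapped between the groups, Pdlim3 among them, and the 5 besides Pdlim3 had log2 fold changes of -0.10 for Lmcd1 to 0.28 for Fhl3. Csrp3, whose loss causes dilated cardiomyopathy in mice, averaged 1285 ± 70 in idKO ventricles and 1324 ± 60 in control ventricles, and its 95% interval was -0.17 to 0.09. Pdlim5, which ties protein kinase C to alpha-actinin, averaged 1270 ± 116 in idKO ventricles and 1154 ± 67 in control ventricles (adjusted p = 0.43, limma). Pdlim1, another alpha-actinin partner, averaged 74.0 ± 6.9 in idKO ventricles and 66.5 ± 5.9 in control ventricles (adjusted p = 0.445, limma). Lmcd1, a repressor of GATA6, averaged 34.9 ± 4.1 in idKO ventricles and 37.2 ± 1.1 in control ventricles (adjusted p = 0.671, limma). An annotated antisense gene overlaps Lmcd1, and reads of the 2 cannot be told apart without the strand setting. Fhl3, an actin-binding FHL protein best known from skeletal muscle, averaged 9.14 ± 1.09 in idKO ventricles and 7.34 ± 1.03 in control ventricles (adjusted p = 0.372, limma).

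**Figure D2:**
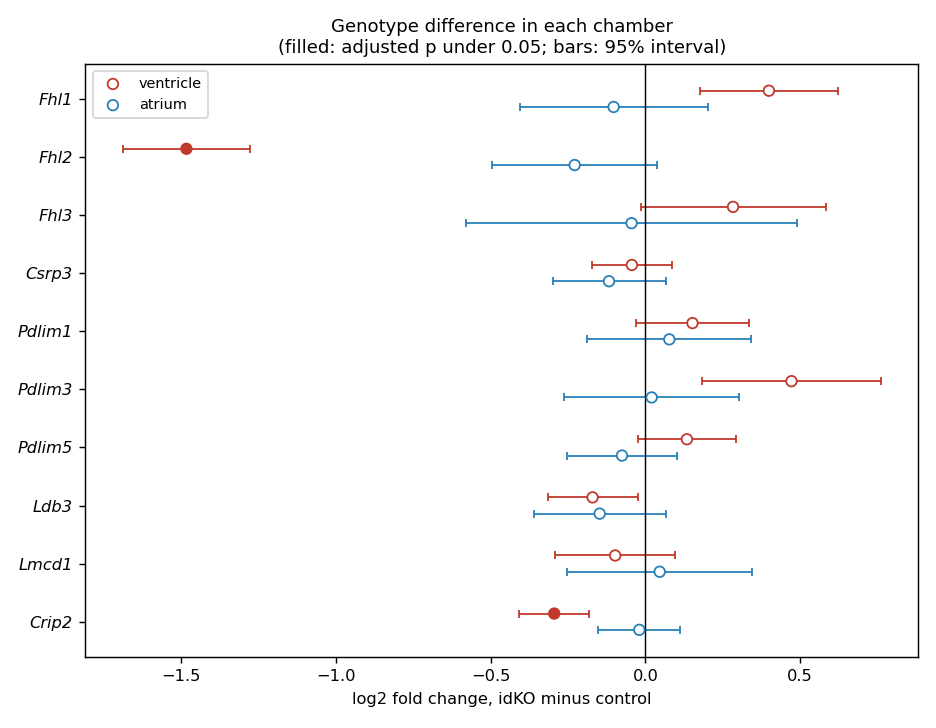
Log2 fold change, idKO minus control (horizontal axis), of the 10 LIM genes in ventricles (red) and atria (blue), with 95% intervals from limma and filled points for an adjusted p under 0.05. Fhl2 at -1.48 and Crip2 at -0.30 are filled in ventricles, and no point is filled in atria.

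Cell markers also differed between the ventricle groups. Of the 6 cardiomyocyte markers all 6 had negative fold changes and 1, Ryr2, fell. Their summed level was 55610 to 65730 in idKO ventricles and 65320 to 70750 in control ventricles. Of the 6 ventricular markers 4 had negative and 2 had positive fold changes, and Mpped2, Irx4 and Lbh fell. Myl3 averaged 7545 in idKO ventricles and 7360 in control ventricles, and Hey2 7.70 in idKO ventricles and 6.08 in control ventricles. The list summed to 14340 to 16200 in idKO ventricles and 16100 to 17460 in control ventricles. Of the 6 atrial markers 5 were tested, 3 with positive and 2 with negative fold changes, and Nppa rose. The list summed to 507 to 1683 in idKO ventricles and 204 to 246 in control ventricles. Myl7 averaged 9.33 in idKO ventricles and 11.2 in control ventricles, and Sln 3.21 in idKO ventricles and 3.25 in control ventricles. Nr2f2 averaged 14.3 in idKO ventricles and 12.4 in control ventricles, and Bmp10 0.73 in idKO ventricles and 0.41 in control ventricles. Macrophage markers summed to 296 to 373 in idKO ventricles and 267 to 277 in control ventricles, and Lyz2 rose, 1 of 6. Fibroblast markers, none of 6 called, summed to 896 to 1384 in idKO ventricles and 854 to 972 in control ventricles. Endothelial markers summed to 687 to 755 in idKO ventricles and 672 to 717 in control ventricles, none of 6 called. Mesothelial markers summed to 9.54 to 27.4 in idKO ventricles and 27.1 to 35.9 in control ventricles, and Msln fell, 1 of 6. Smooth muscle and pericyte markers summed to 757 to 990 in idKO ventricles and 807 to 886 in control ventricles. Of these 6, 5 had negative fold changes and 1 a positive one, and none was called. The part of these shifts in the values of the LIM genes was not tested.

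In atria none of the 10 genes passed the test, against a background of 0.0206% of 14598 genes called in either direction. All adjusted p were 0.966 or above (limma), and 672 of all genes had an unadjusted p under 0.05. DESeq2 and edgeR on the recovered reads also called none of the 10. Fhl2 had 335, 285, 288.7 and 403 normalised reads in idKO atria, against 345, 452, 327 and 412 in control atria. The groups overlapped, with 2 idKO atria below all control atria. The log2 fold change was -0.23 and its 95% interval, -0.50 to 0.04, did not reach the ventricular value of -1.48. Crip2 averaged 697 ± 33 in idKO atria and 706 ± 36 in control atria, with an interval of -0.15 to 0.11. Fhl1 averaged 230 ± 35 in idKO atria and 248 ± 52 in control atria, with an interval of -0.41 to 0.20. Fhl3 had the widest interval, -0.58 to 0.49, at 2.98 to 4.10 normalised reads in idKO atria and 1.97 to 6.42 in control atria. Reads on the transgene and its 2 targets were also measured there. Esr1 averaged 186 ± 96 in idKO atria and 5.02 ± 0.89 in control atria. Meis1 averaged 29.65 ± 2.76 in idKO atria and 28.33 ± 2.86 in control atria (adjusted p = 0.986, limma). Meis2 averaged 17.7 ± 1.6 in idKO atria and 20.0 ± 1.5 in control atria (adjusted p = 0.966, limma), and its genotype effect in ventricles minus that in atria was -1.33 (adjusted p = 2.7e-04, limma). Their part in the atrial result was not tested.

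The difference between the chambers was itself tested on all 16 libraries. Fhl2 was the 1 gene of 10 to pass, against 0.299% of 15075 genes in either direction. Its genotype effect in ventricles minus that in atria was -1.25 on the log2 scale (SE 0.17, 95% interval -1.61 to -0.90, adjusted p = 0.00114, limma). For Crip2 the difference was -0.27 (95% interval -0.43 to -0.12, adjusted p = 0.22) and for Fhl1 it was 0.50 (95% interval 0.10 to 0.91, adjusted p = 0.622). Each mouse gave both chambers, and with the mouse as a fixed replicate block 3 genes passed, Fhl2, Crip2 (adjusted p = 0.0276) and Fhl1 (adjusted p = 0.0079). That block called 103 of all 15075 genes in either direction, against 45 in the main fit. Over all alternatives the adjusted p ran from 0.024 to 0.58 for Crip2 and from 0.0079 to 0.84 for Fhl1.

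In control mice Fhl2 also had the widest gap between chambers of the 10 genes. Within single idKO mice its ventricular value was 2.52, 2.49, 2.37 and 2.31 times the atrial one, and within control mice 6.71, 5.30, 6.31 and 4.97 times. The idKO and control ratios did not overlap. The idKO ventricles nevertheless stayed above every atrial library, since the lowest of them had 685 normalised reads and the highest atrium 452. Crip2 had ratios of 1.46 to 1.59 in idKO mice and 1.79 to 1.86 in control mice. Fhl1 had ratios of 1.19 to 1.47 in idKO mice and 0.80 to 1.03 in control mice. These also lay apart, although neither gene passed the main test between chambers. The ratios of the remaining LIM genes overlapped between the genotypes. How many of all genes have ratios that lie apart was not counted.

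Across the chambers of control mice, 8 of the 10 genes were lower in atria than in ventricles, 1 was higher and 1 did not pass the test. The background was 28.4% of 15075 genes lower and 28.0% higher. The median log2 fold change, atria minus ventricles, was -0.83 over the 10 genes and 0.02 over all genes. Other LIM proteins of muscle and adhesions went mostly the other way. Of 40 tested, 22 were higher and 10 lower in control atria, with a median of 0.36. Of 24 tested Z-disc partners, 2 were higher and 16 lower, with a median of -0.54. Among the 10 genes, Pdlim3 was the 1 higher in atria, with 76.9, 107, 72.2 and 72.0 normalised reads in control atria, while control ventricles had the 19.3 to 20.0 given above. Every atrium lay far above every ventricle. Its log2 fold change was 1.99 (SE 0.14, adjusted p = 6.7e-10, limma). Fhl2 was lowest relative to ventricles at -2.53 (SE 0.12), with 384 ± 58 in control atria and 2206 ± 177 in control ventricles. Lmcd1 followed at -1.31, Pdlim1 at -1.09, Pdlim5 at -0.96, Crip2 at -0.87, Fhl3 at -0.79 and Csrp3 at -0.70. Ldb3 differed by -0.25 (adjusted p = 0.0227), a call lost without control replicate 1 (adjusted p = 0.089) or replicate 3 (adjusted p = 0.119), within a range of 0.00079 to 0.12 over the 20 of 21 alternatives that kept its direction. Fhl1, at 248 ± 52 in control atria and 231 ± 31 in control ventricles, did not pass (adjusted p = 0.587, limma). Marker levels differed between these chambers too. Cardiomyocyte markers summed to 44640 to 52790 in control atria and 65320 to 70750 in control ventricles. Mesothelial markers summed to 298.7 to 398.5 in control atria and 27.1 to 35.9 in control ventricles. Smooth muscle and pericyte markers went both ways, with Cnn1 at 23.3 in control atria and 1.80 in control ventricles, and Rgs5 at 196 and 566. The part of these differences in the chamber results was not tested.

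In idKO mice 9 of the 10 genes were lower in atria than in ventricles and Pdlim3 was higher, against a background of 26.7% lower and 26.5% higher. Of the 40 other LIM proteins tested, 19 were higher and 11 lower in idKO atria, with a median of 0.26. Fhl2 differed by -1.27 (SE 0.12), at 328 ± 55 in idKO atria and 793 ± 116 in idKO ventricles. Fhl1 differed by -0.41 (adjusted p = 0.0172), at 230 ± 35 in idKO atria and 304 ± 40 in idKO ventricles, a call lost without idKO replicate 1 (adjusted p = 0.051). Pdlim3 differed by 1.54, at 82.6 ± 11.01 in idKO atria and 28.1 ± 5.9 in idKO ventricles. The other 7 genes ran from -1.17 for Pdlim5 to -0.22 for Ldb3. The Ldb3 call (adjusted p = 0.039) was lost without idKO replicate 1, 2 or 3 or control replicate 1, within a range of 0.0018 to 0.16 over the 20 of 21 that kept its direction. Cardiomyocyte markers summed to 43520 to 50200 in idKO atria and 55610 to 65730 in idKO ventricles. The part of that difference in these results was not tested. Scaling bears on all chamber results. Rescaling each library to its sum of values put the median of all genes at 0.45 in idKO mice and 0.52 in control mice, against 0.02 in each under the authors' scaling. The calls over all genes then split into 9279 higher and 1550 lower in idKO mice, against 3998 and 4024, and into 9924 and 1391 in control mice, against 4214 and 4278. Under that scaling Ldb3 turned to 0.26 in idKO mice and 0.32 in control mice, Fhl1 turned to 0.07 in idKO mice and was called higher in control atria (0.66), and the Fhl3 and Csrp3 calls in control mice were lost (adjusted p = 0.166 and 0.062). In the ventricle genotype comparison it split the calls into 152 higher and 111 lower, against 68 and 201, and in the test between chambers into 5 and 17, against 4 and 41.

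**Figure D3:**
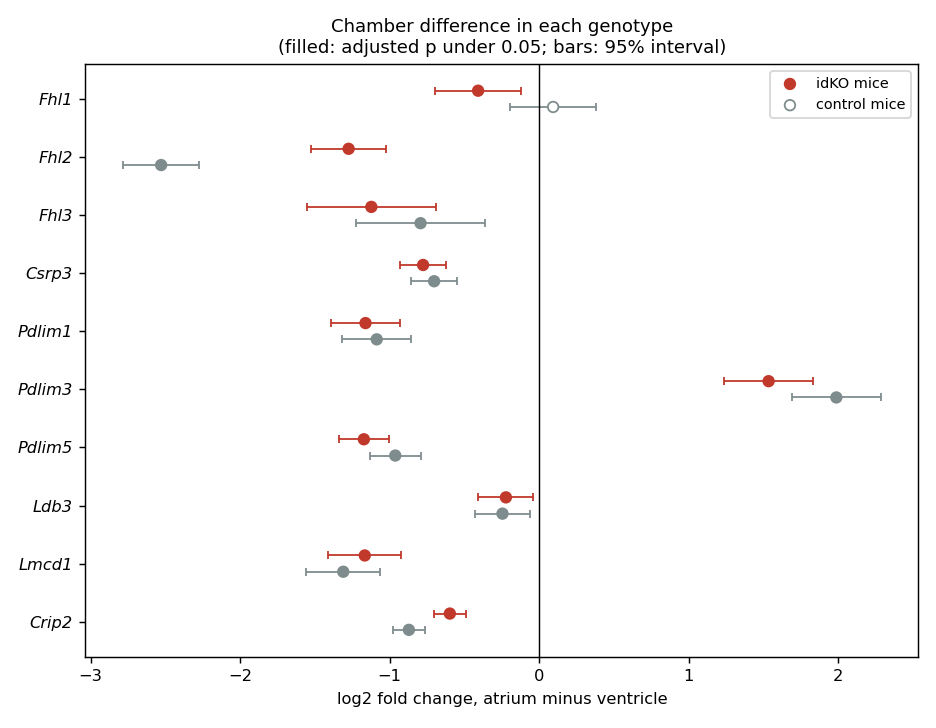
Log2 fold change, atrium minus ventricle (horizontal axis), of the 10 LIM genes in idKO mice (red) and control mice (grey), with 95% intervals from limma and filled points for an adjusted p under 0.05. Pdlim3 is the gene to the right of 0 in both, and the 95% intervals of Fhl2, at -1.27 in idKO mice and -2.53 in control mice, do not meet.

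The balance among the FHL genes also differed between the ventricle groups. Per kilobase, Fhl2 made up 81.1%, 81.9%, 77.1% and 85.1% of the sum of Fhl1, Fhl2 and Fhl3 in idKO ventricles, against 93.9%, 94.0%, 94.3% and 94.5% in control ventricles. The groups lay apart and the control ventricles differed by less than 1 percentage point. In atria the share was 66.1% to 74.9% in idKO mice and 70.4% to 76.8% in control mice, with overlap. The Fhl2 to Fhl1 ratio per kilobase was 4.69 ± 1.005 in idKO ventricles and 17.1 ± 1.1 in control ventricles. It was 2.56 ± 0.47 in idKO atria and 2.79 ± 0.45 in control atria. The sum of the 3 genes lay between 555 and 701 per kilobase in idKO ventricles and between 1387 and 1631 in control ventricles.

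**Figure D4:**
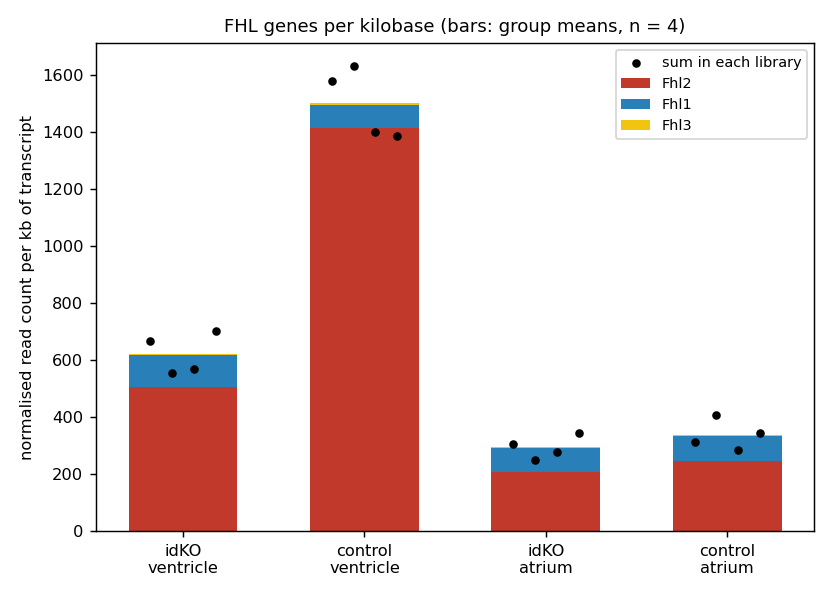
Normalised read count per kilobase of the longest coding transcript (vertical axis) for Fhl2, Fhl1 and Fhl3, stacked as group means of 4 libraries, with the sum in each library as points. Fhl2 fills most of every bar, and the summed level is 555 to 701 in idKO ventricles and 1387 to 1631 in control ventricles.

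The other genes of these pathways were taken from lists chosen by name. Of 41 further LIM proteins of muscle and adhesions, 39 were tested in ventricles, 2 fell and none rose, with a median of 0.07. Beside this and the next counts in ventricles stand the shares over all tested genes, 1.46% lower and 0.492% higher, and their median log2 fold change of -0.01. Nebl, whose product lies along the thin filament at the Z-disc and has a LIM isoform, averaged 324 ± 24 in idKO ventricles and 476 ± 31 in control ventricles (log2 fold change -0.55, adjusted p = 0.00063, limma). These gene-level values do not separate the LIM isoform of Nebl from its other isoforms. Ablim1, an actin-binding LIM protein, averaged 418 ± 33 in idKO ventricles and 615 ± 42 in control ventricles (-0.56, adjusted p = 0.00073, limma). Of 9 tested nuclear LIM factors and cofactors, Lmo2, known from blood and vessel development, rose by 0.49 (adjusted p = 0.044, limma). Of 24 tested Z-disc partners, 2 fell. Cmya5, an alpha-actinin partner, averaged 842 ± 126 in idKO ventricles and 1234 ± 101 in control ventricles. Palld, an actin cross-linker, averaged 275 ± 12 in idKO ventricles and 342 ± 7 in control ventricles. None of 13 calcineurin and NFAT genes and none of 16 integrin adhesion partners passed the test in ventricles, with medians of 0.03 and 0.05. Of 16 tested genes of the SRF and MRTF list, 3 rose and none fell, with a median of 0.01. Nppa, the atrial natriuretic peptide gene, averaged 1115 ± 500 in idKO ventricles and 185 ± 25 in control ventricles. Nppb, its B-type relative, averaged 298 ± 47 in idKO ventricles and 130 ± 21 in control ventricles. Acta1, skeletal alpha-actin, lay between 1458 and 4004 in idKO ventricles and between 628 and 1031 in control ventricles. No gene of these lists passed the test in atria, where 0.0206% of all genes did. The difference between chambers passed for Nebl, Nppa and Nppb, against 0.299% of all genes. These shares are a description, and the lists were not tested as sets.

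The genes with profiles most like Fhl2 over the 16 libraries were Mov10l1 (Pearson r = 0.980), Gpr22 (0.980) and Fitm1 (0.978), among 15075 genes. For Crip2 they were Mrpl2 (0.996), Ndufs8 (0.992) and Fitm1 (0.991). The libraries fall into chamber and genotype groups, which all these profiles share, and no test was made. Gpr22 averaged 18.6 in idKO ventricles, 59.3 in control ventricles, 8.23 in idKO atria and 9.92 in control atria. Among replicates, control mouse 2 was the highest of the 4 control mice for 8 of the 10 genes in ventricles and for 8 in atria, and 7 of these were shared. The atrium of idKO mouse 2 was the lowest of the 4 idKO atria for 9 of the 10. The shares of all genes that follow these replicate orders were not counted.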

How the data were processed

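RNA sequencing of 16 mouse heart libraries (8 mice, atrium and ventricle of each) was analysed from 1 deposited table of 16118 genes. The submitters' processing notes name cutadapt, RSEM 1.3.1 and GRCm38. How the counts were scaled, filtered and assigned to strands is not given in the sources used here. Deposited values are a normalised signal. Dividing them by the worth of 1 read in each library gave whole reads with 0.5 added for 100% of values, within 0.01. The recovered reads are taken as rounded RSEM estimates. Of all identifiers, 206 had no name in the table.

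Each value was tested as log2(value + 1) with limma 3.58.1 in R 4.3.3 (trended prior, two-sided, Benjamini-Hochberg adjustment, called at an adjusted p under 0.05). Genes entered a fit if 4 or more of its libraries had a value of 1 or above. Genotype comparisons used the 8 libraries of a chamber, and the others all 16. DESeq2 1.42.0, edgeR 4.0.16 and voom on the recovered reads, other pseudocounts, filters, scalings and priors, a mouse block and each replicate left out were alternatives. Same-numbered chambers come from the same mouse per the titles, and their deviations correlated at 0.185 to 0.319. No 2 replicates agreed within sampling noise.

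All 10 genes are named, with Meis1, Meis2 and Esr1 as a check, up to 4 called genes of each other list by p, and the 3 genes most like each gene called in ventricles. The genes and lists were chosen with earlier results of these data known. Smtnl1 was taken off a list after its values were seen, because it is not a LIM protein. Gene lengths are from GENCODE M21 on GRCm38, and start regions from RefSeq on GRCm38.p6, where all 10 genes matched. Figures were drawn with matplotlib 3.10.9.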

Additional observations from a re-analysis of the deposited data

Results flagged for a closer look

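In control atria, the Pdlim3 value of replicate 2, 106.9 normalised reads, stood apart from the other 3, which lay between 72.0 and 76.9. The gap was 0.859 of the range, above Dixon's critical value of 0.829 for 4 samples. It was the 1 of 40 groups of libraries checked over the 10 genes, and chance flags about 1 in 20 groups. The same mouse was the highest of the 4 control mice for 8 of the 10 genes in each chamber, and for 7 of them in both. The share of all genes for which it was highest was not counted.

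The genotype effect on Fhl2 differed between the chambers by -1.255 on the log2 scale (ventricles minus atria), as tested by the interaction term on 16 libraries (adjusted p = 0.00114, limma). Meis2 differed by -1.33 and Esr1 by 5.82 in that same test, and their part in the Fhl2 difference was not tested.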

How the results depend on the processing

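Over 21 alternatives for each comparison, Fhl2 kept its direction and its side of the threshold in all 5 comparisons, which in the atrial genotype comparison means that it passed under none. In idKO against control ventricles, 2 genes passed. The prior without trend left 1 (Crip2 lost) and DESeq2 on the recovered reads gave 4, with Fhl1 and Pdlim3 added as higher. For the difference between the chambers 1 gene passed, against 2 with DESeq2 and 3 with the mouse as a fixed replicate block. Leaving out 1 replicate gave 2 to 3 genes in ventricles, 0 in atria, 1 for the difference between the chambers, and, between chambers, 8 to 10 in idKO mice and 8 to 9 in control mice. Of the 14963 to 15003 genes tested between chambers, those fits called 3369 to 3971 higher and 3550 to 4021 lower in idKO mice. In control mice they called 3614 to 4183 higher and 3852 to 4283 lower. Rescaling to the sum of values turned the chamber difference of Ldb3 to 0.259 in idKO mice and 0.321 in control mice, and that of Fhl1 to 0.072 in idKO mice. The Ldb3 chamber calls were also lost under median rescaling, edgeR and voom in both genotypes. The cause of these changes was not tested. The mouse block, fixed or random, changed no other call on the 10 genes. In the atria, the filter at 5 removed Fhl3 from the test. Fhl3 had the fewest reads of the 10 genes, 25 to 140 in a library, and the widest intervals. Over all genes, calls in ventricles numbered 269, against 148 with no filter, 77 with the prior without trend, 537 with DESeq2 and as few as 136 with 1 replicate left out. In atria they numbered 3, against 12 with DESeq2. For the difference between the chambers they numbered 45, against 22 after rescaling to the sum, 25 with the prior without trend or voom, 86 with DESeq2, 103 and 72 with the mouse as a fixed and as a random block, and as few as 19 with 1 mouse left out.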
